A study of Mus musculus with 10 samples.

Results

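Genes of the sebaceous gland were followed in RNA of epidermis from 10 mice that were 3 days old. The 10 genes listed were Pparg, Mc5r, Fa2h, Far2, Awat1, Awat2, Soat1, Dgat2, Plin2 and Mgst1, and they were found by their symbol in the platform annotation. A gene entered where a probe set carried its symbol and no other, and 9 of the 10 had such a probe set, 1 each, out of 19938 genes measured in this way. Soat1, which encodes a cholesterol-esterifying enzyme, had no probe set under its single symbol and was not analysed here. The ILK-deficient mice (K14Cre; Ilk f/f, 5 arrays) carried the KRT14-cre transgene in hemizygous form and floxed Ilk on both alleles. The ILK-expressing mice (K14Cre; Ilk f/+, 5 arrays) carried the same transgene and 1 floxed allele, so the controls also expressed Cre. ILK is integrin-linked kinase, a scaffold protein of integrin adhesions, and the keratin 14 promoter drives Cre in basal keratinocytes and in cells derived from them, sebocytes included. Each array held the epidermis of 1 mouse, separated from dermis with dispase, and gave 1 log2 value per probe set on a GeneChip Mouse Gene ST array. A difference of 1 on this scale is a doubling of the linear value.

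Sebaceous glands bud from the upper hair follicle and fill it with sebum, a mixture of wax esters, triglycerides and sterol esters that is released when whole sebocytes break down. PPARγ, a nuclear receptor for lipid ligands that pairs with RXR, is required for sebocyte differentiation, and the melanocortin 5 receptor stimulates lipid secretion. The enzymes of the list make the lipids: FA2H adds a hydroxyl group to fatty acids, FAR2 reduces fatty acyl-CoA to fatty alcohol, AWAT1 and AWAT2 join fatty alcohols and fatty acids into wax esters, and DGAT2 makes triglycerides. PLIN2 coats lipid droplets, and MGST1 is a membrane-bound glutathione transferase.

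The sequences just before the transcription starts of Pparg, the member whose difference passed the test, and of Plin2 are shown because they were the only member promoters that held AGGTCA, the half-site read by many nuclear receptors. RefSeq (GRCm38.p6) gave 11 promoters for 7 of the 10 genes, and the 250 bases before each start were searched on both strands. Capitals mark the half-site, each sequence runs 5′ to 3′ on the strand of the gene, and Pparg start 3, without the half-site, is shown beside starts 1 and 2.
Pparg start 1, chr6:115360894-115361143, plus strand: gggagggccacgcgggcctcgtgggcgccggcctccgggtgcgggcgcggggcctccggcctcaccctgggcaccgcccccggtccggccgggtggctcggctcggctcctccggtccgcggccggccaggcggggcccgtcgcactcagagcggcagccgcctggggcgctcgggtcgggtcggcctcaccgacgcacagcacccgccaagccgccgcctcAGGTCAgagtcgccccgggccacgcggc
Pparg start 2, chr6:115362099-115362348, plus strand: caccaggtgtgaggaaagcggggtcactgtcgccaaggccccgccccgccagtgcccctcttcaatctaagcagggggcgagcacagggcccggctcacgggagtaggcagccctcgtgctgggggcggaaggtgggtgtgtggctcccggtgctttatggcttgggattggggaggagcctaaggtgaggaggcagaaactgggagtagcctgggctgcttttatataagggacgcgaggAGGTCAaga
Pparg start 3, chr6:115421816-115422065, plus strand: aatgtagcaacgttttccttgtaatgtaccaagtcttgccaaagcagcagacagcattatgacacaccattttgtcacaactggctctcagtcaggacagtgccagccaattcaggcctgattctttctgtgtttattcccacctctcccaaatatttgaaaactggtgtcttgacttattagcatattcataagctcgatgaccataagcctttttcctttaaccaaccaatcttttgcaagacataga
Plin2, chr4:86670060-86670309, minus strand: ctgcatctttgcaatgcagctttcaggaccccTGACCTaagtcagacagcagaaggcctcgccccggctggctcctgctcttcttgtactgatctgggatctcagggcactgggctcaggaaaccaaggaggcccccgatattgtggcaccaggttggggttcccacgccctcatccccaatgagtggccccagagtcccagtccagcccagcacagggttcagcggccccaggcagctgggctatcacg
The half-site lay at -28 from Pparg start 1 and at -9 from Pparg start 2, on the strand of the gene, and at -218 from the Plin2 start on the opposite strand, where it reads TGACCT. It was thus present in 3 of the 11 member promoters, and 14.0% of all 32851 promoters of the same length hold it. The same letters as a direct repeat, AGGTCA followed by any 1 base and AGGTCA again, was in no member promoter and in 0.0335% of all promoters. TCACNCCAC, a form of the sterol regulatory element, was also in none, against 1.05% of all. TATAAA was in 1 member promoter, that of Pparg start 2, against 12.4% of all. A match describes the letters only.

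All 9 genes measured had a lower mean in ILK-deficient than in ILK-expressing epidermis, but the arrays of the genotypes were apart for Pparg and Mc5r only. The log2 fold changes lay between -2.13 for Mc5r and -0.03 for Plin2, with a median of -0.77, and the median over the 32046 probe sets tested was 0.00. Values below 0 were found for 49.0% of all probe sets tested. By limma with Benjamini-Hochberg adjustment, 1 of the 9 genes, Pparg, was lower at an adjusted p under 0.05, and 0.970% of all probe sets were. No member was higher, whereas 2.81% of all probe sets were. At an unadjusted p under 0.05, 3 of the 9 (Pparg, Mc5r and Mgst1) were lower, against 5.65% of all probe sets, and the same 3 passed the methods' analysis of variance with a change of at least 1.5-fold, against 0.818% of all. No overlap between the genotypes, lower in ILK-deficient epidermis, was found for 2 of the 9 and for 1.96% of all. In whole epidermis, fewer sebocytes and less RNA per sebocyte cannot be told apart.

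**Figure D1:**
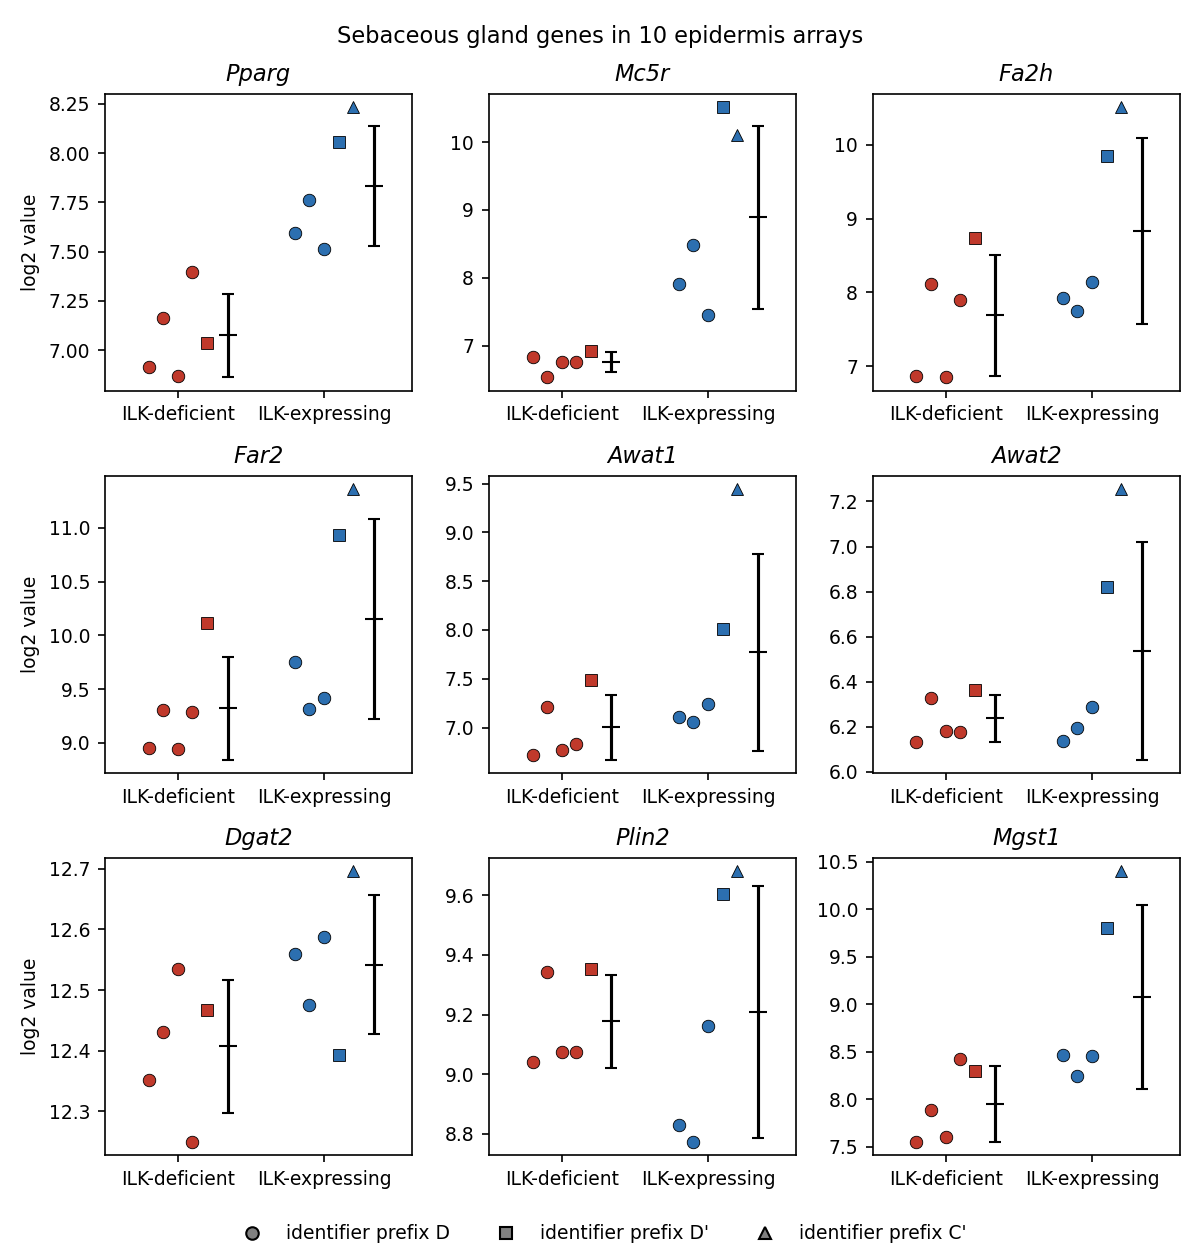
The log2 value (y axis) of each of the 9 genes in the 5 ILK-deficient arrays (red, left) and the 5 ILK-expressing arrays (blue, right), with the mean and SD as black bars and the prefix of the mouse identifier as the symbol shape; each panel has its own y axis, which does not start at 0. The genotypes are apart for Pparg and Mc5r, and ILK-expressing replicates 4 (square) and 5 (triangle) lie above the other 3 ILK-expressing arrays in every panel but that of Dgat2.

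Pparg (probe set 10540897) had log2 values of 6.91, 7.16, 6.87, 7.39 and 7.04 in the ILK-deficient arrays, against 7.59, 7.76, 7.52, 8.05 and 8.23 in the ILK-expressing arrays. Every ILK-deficient array was thus below every ILK-expressing array, and ILK-expressing replicates 4 and 5 were the highest. The mean was 7.07 ± 0.212 in ILK-deficient and 7.83 ± 0.306 in ILK-expressing epidermis (SD, n = 5 each), a log2 fold change of -0.76 (standard error 0.151), or 1.69-fold lower (limma, adjusted p = 0.0233; two-sided exact permutation test, p = 0.00794, the smallest that 5 against 5 arrays can give). The adjusted p was 0.0587 without ILK-deficient replicate 1, 0.0619 without ILK-deficient replicate 5 and 0.0605 without ILK-expressing replicate 4, so the call, though not the direction, depended on single arrays.

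None of the 13 other genes tested among PPAR receptors and their partners passed the test, and their median log2 fold change was 0.00. Ppara, the receptor that drives fatty acid oxidation in liver, averaged 6.71 ± 0.105 in ILK-deficient and 6.95 ± 0.156 in ILK-expressing epidermis (adjusted p = 0.184). Ppard, the PPAR expressed widely in keratinocytes, differed by -0.02, and Rxra, which encodes a partner of all 3 PPARs, by 0.16. The coactivator gene Med1 differed by -0.10. Among 15 other known PPAR target genes, 10 had a log2 fold change below 0 and 5 above it, and none passed. The lowest value was -0.68 for Fabp4, a fatty acid carrier of adipocytes, and the highest 0.31 for Pdk4, a kinase that restrains pyruvate oxidation. Fabp5, the epidermal fatty acid carrier, differed by -0.21, Cpt1a, which admits fatty acids to mitochondria, by -0.02, and malic enzyme Me1 by -0.32.

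Mc5r (probe set 10456513) had log2 values of 6.83, 6.53, 6.75, 6.76 and 6.92 in the ILK-deficient arrays, against 7.91, 8.48, 7.45, 10.52 and 10.10 in the ILK-expressing arrays. The ILK-deficient values lay close together, and the ILK-expressing ones fell into a lower set of 3 and a pair above 10. The SD was 0.142 in ILK-deficient and 1.35 in ILK-expressing epidermis, a ratio of 9.50 between ILK-expressing and ILK-deficient. Its mean differed by -2.13 on the log2 scale (standard error 0.531), or 4.39-fold, which did not pass (limma, adjusted p = 0.0537) although no arrays overlapped (exact permutation test, p = 0.00794). Without ILK-expressing replicate 3 the log2 fold change was -2.49 and passed (adjusted p = 0.0310).

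Of 10 other genes of melanocortin receptors and their ligands tested, none passed, and the largest difference was 0.42 for Mc1r, the receptor of pigment cells (8.26 in ILK-deficient and 7.84 in ILK-expressing epidermis, adjusted p = 0.134). Atrn and Mgrn1, which act with melanocortin receptors in pigment-type switching, differed by -0.04 and 0.11.

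The enzymes of hydroxylated fatty acids, fatty alcohols and wax esters had lower means in ILK-deficient epidermis and overlapped between genotypes. Fa2h (probe set 10581824) was at 6.87, 8.11, 6.85, 7.90 and 8.73 in the ILK-deficient arrays, against 7.92, 7.75, 8.14, 9.84 and 10.51 in the ILK-expressing arrays. The difference of the means was -1.14 on the log2 scale, with a standard error of 0.585 (limma, adjusted p = 0.403; exact permutation p = 0.127). ILK-deficient replicates 2, 4 and 5 were above the lowest ILK-expressing array, and replicates 1 and 3 were below all 5.

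Far2 (probe set 10542857) was at 8.95, 9.30, 8.94, 9.29 and 10.12 in the ILK-deficient arrays, against 9.75, 9.31, 9.42, 10.93 and 11.36 in the ILK-expressing arrays. ILK-deficient replicate 5 was the only ILK-deficient array inside the ILK-expressing range, and the means differed by -0.83 (standard error 0.409; limma, adjusted p = 0.369; exact p = 0.111). The paralogue Far1 averaged 10.2 in ILK-deficient and 10.1 in ILK-expressing epidermis, a difference of 0.12.

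Awat1 (probe set 10600988) was at 6.71, 7.22, 6.77, 6.84 and 7.49 in the ILK-deficient arrays, against 7.10, 7.06, 7.24, 8.01 and 9.44 in the ILK-expressing arrays. Awat2 (probe set 10605929) was at 6.13, 6.33, 6.18, 6.18 and 6.36 in the ILK-deficient arrays, against 6.14, 6.19, 6.29, 6.82 and 7.25 in the ILK-expressing arrays. Outside ILK-expressing replicates 4 and 5, the Awat2 arrays of both genotypes covered nearly the same range. The log2 fold changes were -0.77 for Awat1 (standard error 0.416, adjusted p = 0.439; exact p = 0.127) and -0.30 for Awat2 (standard error 0.197, adjusted p = 0.561; exact p = 0.310). Without ILK-expressing replicates 4 and 5 the Awat2 difference was 0.03.

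Mgst1 (probe set 10542470) was at 7.55, 7.88, 7.60, 8.43 and 8.30 in the ILK-deficient arrays, against 8.46, 8.24, 8.45, 9.81 and 10.40 in the ILK-expressing arrays. Only ILK-deficient replicates 4 and 5 were above the lowest ILK-expressing array. The means differed by -1.12 on the log2 scale (standard error 0.408), or 2.17-fold, with an adjusted p of 0.188 from limma and an exact p of 0.0397. Mgst2, which encodes a related glutathione transferase that can also make leukotriene C4, was lower in every ILK-deficient array and passed the test: its values were 8.01, 8.50, 8.34, 8.63 and 8.15 in the ILK-deficient arrays, against 8.94, 8.82, 9.51, 9.18 and 9.41 in the ILK-expressing arrays (log2 fold change -0.85, standard error 0.156, adjusted p = 0.0168). Of the 5 family members besides Mgst1, it was the only one past the test. Mgst3 differed by -0.29, Ptges, the inducible prostaglandin E synthase, by 0.31, and Alox5ap, the 5-lipoxygenase activating protein, by 0.01.

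Dgat2 and Plin2, which act in lipid storage well beyond the sebaceous gland, differed least. Dgat2 (probe set 10565775) was at 12.35, 12.43, 12.54, 12.25 and 12.47 in the ILK-deficient arrays, against 12.56, 12.48, 12.59, 12.39 and 12.70 in the ILK-expressing arrays. The log2 fold change was -0.13, with a 95% confidence interval of -0.30 to 0.03 (adjusted p = 0.462; exact p = 0.103). Plin2 (probe set 10514221) was at 9.04, 9.34, 9.08, 9.07 and 9.35 in the ILK-deficient arrays, against 8.83, 8.77, 9.16, 9.60 and 9.68 in the ILK-expressing arrays. The ILK-expressing Plin2 values lay on both sides of the ILK-deficient ones, and the log2 fold change was -0.03, with an interval of -0.43 to 0.37 (adjusted p = 0.970; exact p = 0.817).

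The labels give each mouse an identifier whose first letters differ, and these letters ran with the level of the sebaceous genes. ILK-deficient replicates 1 to 4 and ILK-expressing replicates 1 to 3 carried the prefix D, ILK-deficient replicate 5 and ILK-expressing replicate 4 the prefix D′, and ILK-expressing replicate 5 the prefix C′. What the prefix stands for is not stated. ILK-expressing replicates 4 and 5 were both above the other 3 ILK-expressing arrays for 8 of the 9 genes, against 10.4% of all probe sets, with Dgat2 as the exception. ILK-deficient replicate 5 was the highest of its genotype for 6 of the 9, against 17.6% of all. Relative to the ILK-expressing mean of each gene, the median over the 9 genes was -1.06, -0.67, -0.998, -0.65 and -0.17 in the ILK-deficient arrays, against -0.40, -0.44, -0.53, 0.39 and 1.20 in the ILK-expressing arrays. ILK-deficient replicate 5 was therefore above 3 of the ILK-expressing arrays by this measure. ILK-expressing replicates 4 and 5 also had the lowest median correlation with the other arrays over all probe sets, 0.975 and 0.974, where the other 8 arrays had 0.980 to 0.986.

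Within the prefix D, 4 ILK-deficient arrays were set against 3 ILK-expressing ones, and most differences were smaller. The arrays did not overlap for Pparg, Mc5r and Far2, 3 of the 9 genes, against 3.57% of all probe sets. The log2 fold change was -0.54 for Pparg (limma, adjusted p = 0.164), -1.23 for Mc5r (adjusted p = 0.0507) and -0.37 for Far2 (adjusted p = 0.359), and none passed. Mgst1 differed by -0.52, Fa2h by -0.50 and Awat1 by -0.25. Dgat2 differed by -0.15, Awat2 by -0.00 and Plin2 by 0.21.

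The single pair of arrays with the prefix D′ gave differences of -3.60 for Mc5r, -1.51 for Mgst1, -1.11 for Fa2h and -1.02 for Pparg between ILK-deficient replicate 5 and ILK-expressing replicate 4, with no replicate check. With the prefix as a block in the fit of all 10 arrays, Pparg was at -0.65 (limma, adjusted p = 0.0430) and Mc5r at -1.76 (adjusted p = 0.0471), and these 2 of the 9 genes passed, against 0.677% of all probe sets. The other 7 did not, with Mgst1 at -0.74 (adjusted p = 0.120), Far2 at -0.47 (adjusted p = 0.110) and Awat1 at -0.31 (adjusted p = 0.203). ILK-expressing replicate 5, alone with the prefix C′, adds nothing to the genotype difference in this fit. The block estimates thus rest on the prefix D arrays and the single D′ pair, and within the prefix D neither Pparg nor Mc5r passed.

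**Figure D2:**
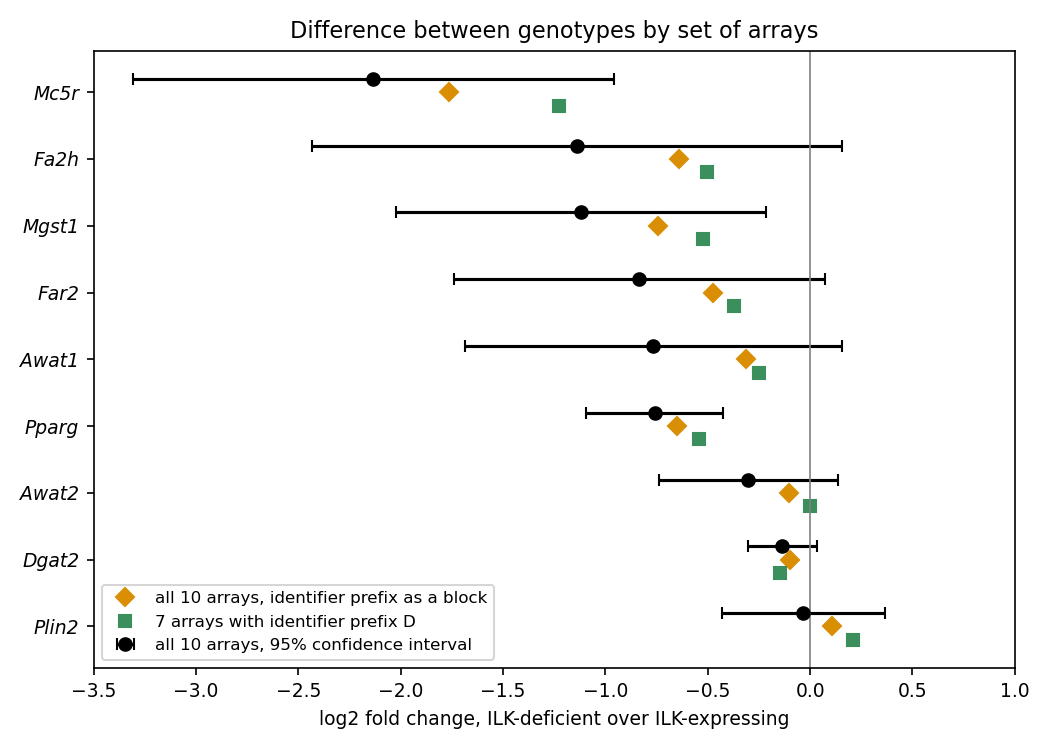
Log2 fold change of ILK-deficient over ILK-expressing epidermis (x axis) for the 9 genes (y axis), from all 10 arrays with the 95% confidence interval (black), with the identifier prefix as a block (orange) and from the 7 arrays with the prefix D (green). Mc5r was at -2.13, -1.76 and -1.23 and Pparg at -0.76, -0.65 and -0.54 in this order, while Plin2 was at -0.03, 0.11 and 0.21. The array that alone carries the prefix C′ adds nothing to the orange estimates.

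The genes also varied together among mice of 1 genotype, most clearly over all 10 arrays. After the genotype mean of each gene was taken off, 34 of the 36 pairs of genes had a Pearson's r above 0 over the 10 arrays, and the median r was 0.82. The wax ester synthases Awat1 and Awat2 were the pair with the highest r, 0.97, followed by Fa2h and Far2 at 0.96. Dgat2 stood apart, with r between -0.23 with Pparg and 0.41 with Awat1. The 28 pairs without Dgat2 had r between 0.64 and 0.97 and a median of 0.87. These arrays share their hybridization and normalization, and much of the shared variation came from 2 arrays. Without ILK-expressing replicates 4 and 5 the median of the 28 pairs was 0.46, with 22 above 0 and a lowest r of -0.63. Awat1 and Awat2 kept an r of 0.92 over the 8 arrays left. Over the 7 arrays with the prefix D the median of the 28 pairs was 0.27, with 21 above 0 and r between -0.85 and 0.90.

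**Figure D3:**
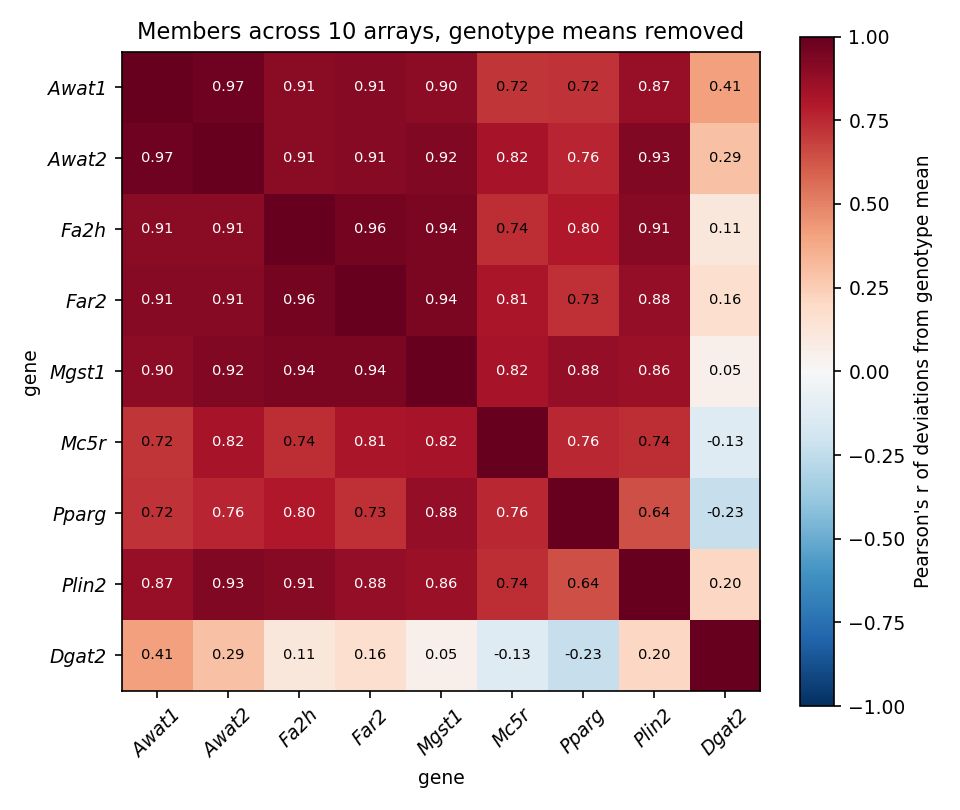
Pearson's r between the deviations of each pair of the 9 genes (both axes) from their genotype means over 10 arrays, on a colour scale from -1 (blue) to 1 (red). The 8 genes other than Dgat2 form a block with r of 0.64 or more, and the row of Dgat2 lies between -0.23 and 0.41.

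Of 19814 other probe sets with a single gene symbol, those whose deviations were most like Mc5r were of Sytl2 (r = 0.991), which encodes a synaptotagmin-like protein that tethers secretory vesicles, AU018091 (0.989) and the GABA and taurine transporter gene Slc6a13 (0.988). Fa2h was most like the ceramide synthase gene Cers4 (0.978), the oligosaccharyltransferase subunit gene Stt3b (0.976) and the fatty acid desaturase gene Scd1 (0.973). Mgst1 was most like AAdacl4fm3 (0.983), Tmem45b (0.972) and Pdcd10 (0.971). None of these 9 genes passed the test between genotypes, and their log2 fold changes lay between -2.00 for AU018091 and 0.17 for Pdcd10. These r used all 10 arrays and were not computed without ILK-expressing replicates 4 and 5. Much of the shared variation of the members came from those arrays, so the r may rest on them.

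Among 24 other genes known from sebaceous glands, 15 had a log2 fold change below 0 and 9 above it, the median was -0.14 and none passed the test. Elovl3, an elongase that makes very long chain fatty acids for sebum, had the largest difference. It was at 5.89, 7.37, 5.94, 6.88 and 7.79 in the ILK-deficient arrays, against 8.25, 8.44, 8.03, 10.48 and 10.25 in the ILK-expressing arrays, with no overlap (log2 fold change -2.31, standard error 0.565, adjusted p = 0.0508). It showed the same high pair, ILK-expressing replicates 4 and 5, as Mc5r. With the identifier prefix as a block it was at -1.94 and passed (limma, adjusted p = 0.0207), as it did in 7 of 22 alternatives, and within the prefix D it was at -1.72 and did not (adjusted p = 0.0832). Hsd3b6, which encodes a steroid dehydrogenase, differed by -1.03 (adjusted p = 0.370), Scd1 by -0.80 (adjusted p = 0.160) and its relative Scd3 by -0.75 (adjusted p = 0.444). Gata6, a transcription factor of the sebaceous duct lineage, was higher in every ILK-deficient array, with a mean of 9.80 ± 0.359 in ILK-deficient and 9.02 ± 0.340 in ILK-expressing epidermis, and did not pass (log2 fold change 0.78, adjusted p = 0.0586). It passed in 5 of 22 alternatives, among them the prefix as a block (limma, 0.88, adjusted p = 0.00908) and the prefix D alone (0.84, adjusted p = 0.0390). Over the 22 its adjusted p reached 0.129. Krt79 and Plet1, which mark the duct and the junctional zone, differed by -0.09 and 0.23. Plet1 was also higher in every ILK-deficient array and did not pass (limma, adjusted p = 0.0875). Fabp5, in the same list, was lower in every ILK-deficient array and did not pass (limma, adjusted p = 0.131).

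Genes of lists related to the members gave few calls. Of 8 other genes listed with the neutral lipid acyltransferases, 1 was higher and none lower. That gene was Lpin1, which encodes a phosphatidate phosphatase and not an acyltransferase, at 7.13 ± 0.0855 in ILK-deficient and 6.72 ± 0.0665 in ILK-expressing epidermis (log2 fold change 0.42, adjusted p = 0.00648). No acyltransferase gene of this list besides the members passed. Dgat1, the other triglyceride synthase gene, differed by -0.01. Of 14 other lipid droplet genes, Bscl2, which encodes seipin, a protein of droplet formation, was lower (11.4 ± 0.0733 in ILK-deficient and 11.8 ± 0.108 in ILK-expressing epidermis, log2 fold change -0.36, adjusted p = 0.0168). The droplet genes Abhd5, Plin3 and Pnpla2 differed by -0.17, 0.04 and -0.04. Within the prefix D, none of Mgst2 (-0.72, adjusted p = 0.181), Lpin1 (0.35, adjusted p = 0.0747) and Bscl2 (-0.38, adjusted p = 0.130) passed.

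None of 9 other genes of fatty alcohol and ether lipid synthesis passed, and their values lay between -0.30 for Hsd17b12, an enzyme of fatty acid elongation, and 0.23 for Pex7, a peroxisomal import receptor. None of 16 other ceramide genes passed either, between -0.70 for Cers4 and 0.28 for Cers2. Cers3, the synthase of the longest epidermal ceramides, differed by -0.20, and the ceramidase genes Acer1 and Asah1 by -0.28 and 0.18.

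**Figure D4:**
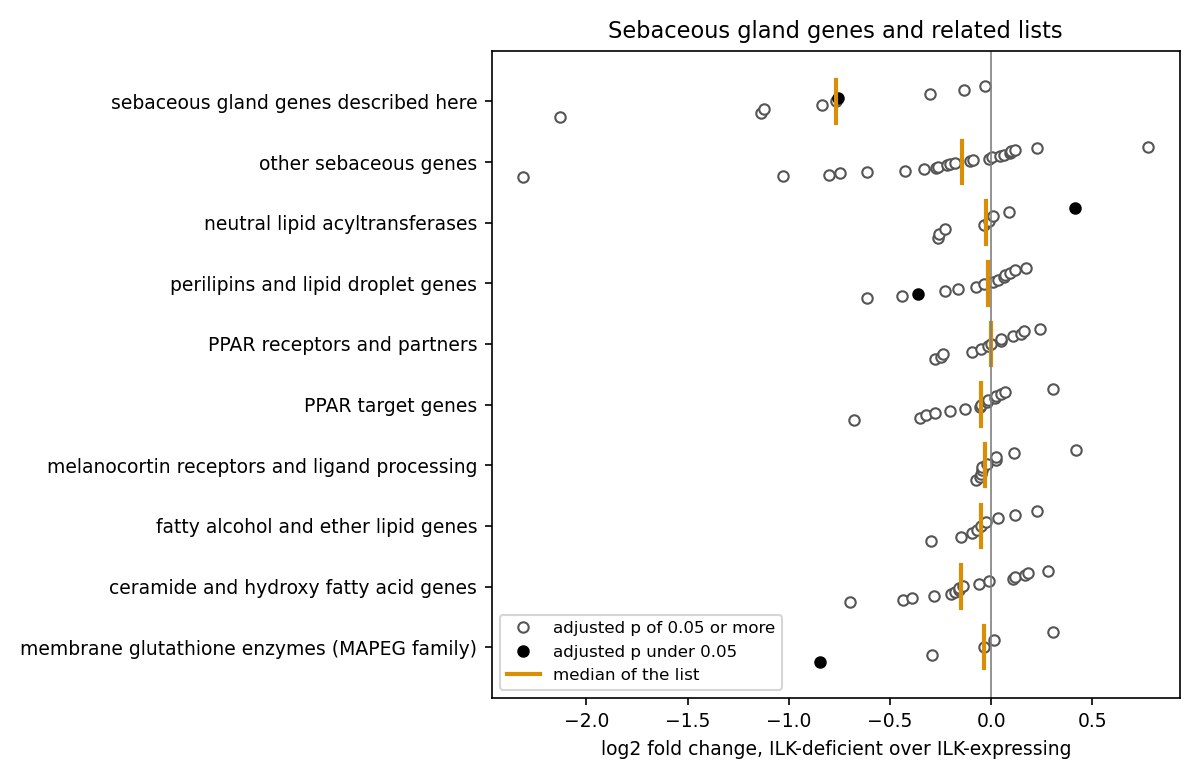
Log2 fold change of ILK-deficient over ILK-expressing epidermis (x axis) for each tested gene of the list described here and of 9 related lists (y axis), which leave out the members, with genes past an adjusted p of 0.05 as filled points and an orange line at the median of each list. The median is -0.77 for the sebaceous gland genes and between -0.15 and 0.00 for the related lists.

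Markers of other skin cells were read on the same arrays. Of 10 genes of the hair shaft and inner root sheath, 9 were lower in ILK-deficient epidermis, with a median log2 fold change of -3.99. Their summed level, on the log2 scale, was 12.2 to 12.8 in the ILK-deficient arrays and 14.4 to 16.2 in the ILK-expressing arrays, where replicates 4 and 5 were again the highest, at 16.2 and 15.6. After genotype means were taken off, r with these hair genes was 0.82 for Mc5r, 0.57 to 0.71 for the 7 genes other than Mc5r and Dgat2, and 0.02 for Dgat2. These r used all 10 arrays, replicates 4 and 5 included, and were not computed without them. The part of the hair follicle in the sebaceous differences was not tested.

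Adipocytes share Pparg, Dgat2 and Plin2 with sebocytes. Of 9 adipocyte markers none passed, their median log2 fold change was -0.01, and Adipoq, the defining adipocyte hormone, was at 5.79 ± 0.0873 in ILK-deficient and 5.92 ± 0.211 in ILK-expressing epidermis, near the 5.64 that marks a linear value of 50. The means of the markers ranged from Pck1, at 5.66 in ILK-deficient and 5.64 in ILK-expressing epidermis, to Lipe, at 8.53 and 8.97. Single arrays lay between 5.73 and 7.97 for Car3 in ILK-deficient epidermis, and between 5.92 and 8.50 in ILK-expressing epidermis. Fabp4, the adipocyte marker with the largest difference, reached 9.22 in ILK-expressing replicate 4. The summed level of the markers was 10.1 to 10.3 in the ILK-deficient arrays and 10.1 to 10.9 in the ILK-expressing arrays. ILK-expressing replicates 4 and 5 were again the highest, at 10.9 and 10.7, followed by ILK-expressing replicate 2, at 10.6. Over the 10 arrays, r with the members lay between -0.17 for Dgat2 and 0.45 for Mc5r.

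The 8 dermal fibroblast markers were above 0 with a median of 0.29, and none passed. Their summed level was 12.3 to 13.0 in the ILK-deficient arrays and 11.2 to 12.7 in the ILK-expressing arrays. This sum mostly reflects Dcn, with means of 12.2 in ILK-deficient and 11.4 in ILK-expressing epidermis, and Fbln1, with means of 10.6 and 10.1. Of 7 basal keratinocyte markers, Trp63 passed at 0.35 and Krt14 at -0.23, and of 5 suprabasal markers none passed. Neither Trp63 (adjusted p = 0.0586) nor Krt14 (adjusted p = 0.0693) passed with the prefix as a block, and neither passed within the prefix D. All 6 melanocyte markers were above 0, and 4 (Tyr, Dct, Pmel and Sox10) passed. With the prefix as a block 2 of them, Tyr and Sox10, passed, and within the prefix D none did. Of 7 macrophage and Langerhans cell markers, Adgre1 passed at 0.50, also with the prefix as a block (adjusted p = 0.0207) but not within the prefix D (adjusted p = 0.0896). None of 5 endothelial markers passed. The 6 muscle markers were above 0 with a median of 0.14 and none passed, and their summed level was 9.33 to 9.94 in the ILK-deficient arrays and 9.38 to 9.42 in the ILK-expressing arrays, with ILK-deficient replicates 3 and 4 highest. Of 5 genes of the junctional zone and sebaceous duct, Lgr6 was higher (11.5 in ILK-deficient and 10.5 in ILK-expressing epidermis, log2 fold change 0.99, adjusted p = 0.00412). Ilk itself, whose probe set pools all exons, was at 8.75, 8.99, 9.07, 8.97 and 8.92 in the ILK-deficient arrays, against 9.02, 9.01, 9.35, 9.08 and 9.38 in the ILK-expressing arrays, so that it is a weak check of the genotypes.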

How the data were processed

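RNA of the epidermis of 10 mice was hybridized to 10 arrays, and genotypes were taken from the labels of the samples. The authors deposited 1 log2 value for each of 35556 probe sets and array, already background-adjusted and quantile-normalized, and the methods name both RMA and GC-RMA without stating which made the table. Array medians lay between 7.07 and 7.17. These values were used as they are. Precision is limited by the number of arrays. Testing was limited to the 32046 probe sets that reached a linear value of 50 on 5 or more arrays, and all 9 measured members passed this filter. The genotypes were compared with limma 3.58.1 in R 4.3.3 by lmFit and eBayes, with no block, and p was adjusted by Benjamini-Hochberg over the 32046. Single genes were also compared by a two-sided exact permutation test over 252 assignments of the arrays. The comparison was tested on simulated data with independent noise of equal SD in both genotypes. The shared variation and unequal SDs of the members were not simulated. The members and gene lists were chosen with earlier results of these data known. Named genes are the members, up to 6 called genes of each list, up to 3 abundant genes that did not pass and those that differed by 1 or more. Ppara, Pdk4, Far1, Scd3, Gata6, Pex7, Cers2, Adipoq, Pck1 and Car3 were named after their values were seen. Alternatives changed the filter, scaling, test, block, probe sets or arrays used.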

Additional observations from a re-analysis of the deposited data

How the results depend on the processing

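All members kept their direction under every alternative run, apart from Plin2 and, in one case, Awat2. Plin2 was at 0.0553 with array weights, 0.11 with the identifier prefix as a block, 0.21 within the prefix D and 0.25 without ILK-expressing replicates 4 and 5 together, an alternative chosen after seeing the data, and it ranged between -0.14 and 0.0844 over the 10 fits that left out 1 array each. Without both arrays Awat2 was at 0.0311. The Pparg call was lost under the methods' analysis of variance after adjustment (-0.76, adjusted p = 0.0630), within the prefix D (-0.54) and without ILK-expressing replicates 4 and 5 (-0.55, adjusted p = 0.0777), and its log2 fold change ranged between -0.84 and -0.66 when single arrays were left out. Mc5r passed with a filter at a linear value of 100 (-2.13, adjusted p = 0.0402) and with the average over a gene's probe sets (-2.13, adjusted p = 0.0216). Mc5r has 1 probe set, so neither setting changed its values, only the other probe sets or genes fitted and adjusted with it. It also passed after another quantile normalization (-2.14, adjusted p = 0.0494), with the prefix as a block (-1.76) and without ILK-expressing replicates 4 and 5 (-1.19, adjusted p = 0.0249). Its log2 fold change ranged between -2.49 and -1.73 when single arrays were left out. The number of members lower was 2 with the filter at 100, which did not test Awat2, with another quantile normalization, with the prefix as a block and with the average over probe sets, and 0 under the methods' analysis of variance and within the prefix D, with a range of 0 to 2 when single arrays were left out. No member was higher in any fit. Of the related lists, 2 genes were lower and 1 was higher. These counts were 4 lower with another quantile normalization and with the mean of probe sets, 1 lower under the analysis of variance, and 0 lower within the prefix D and without both arrays. They were 2 higher with the filter at 100, with array weights and with the prefix as a block, and 3 higher with the mean of probe sets. Over all probe sets, 311 lower and 900 higher calls compared with 158 and 528 under the analysis of variance, 481 and 1012 after quantile normalization, 255 and 593 with arrays centred, 101 and 193 within the prefix D, 161 and 369 without both arrays, and 473 and 1220 with the mean of probe sets. Replicate numbers did not pair the samples (r of deviations -0.30 to 0.11 over same-numbered arrays), and the replicate block left 1 member lower, with 131 lower and 477 higher calls. The causes of these shifts were not tested.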
